A study of Homo sapiens with 48 samples.

Results

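The 8 genes described here encode receptors of the TNF receptor superfamily: TNFRSF1A and TNFRSF1B, the receptors of TNFα, TNFRSF12A, the receptor of TWEAK, LTBR, the lymphotoxin β receptor, and TNFRSF9, CD40, TNFRSF21 and FAS. They were chosen by name out of 20033 protein-coding genes, and every peak that overlapped the body of a gene or the 50 kb on either side of it was counted. These are peaks of ChIP-seq, which sequences the DNA bound by a protein or a histone mark, from L3.6pl, an established human pancreatic ductal adenocarcinoma cell line. Cells received vehicle (PBS), TNFα for 30 min or 6 h, or TWEAK for 30 min or 6 h, and RELA, RELB and H3K27ac were profiled in all 5 conditions, while FOSL1 was profiled in vehicle. How long vehicle was applied is not stated in the sources used here. The 48 samples make up 16 conditions of 3 replicates, with 1 peak list per condition made from merged replicates, so a difference between conditions has no replicate error and no test. The peak names leave it unsettled whether the RELA list after 30 min TNFα holds all 3 replicates.

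RELA and RELB are subunits of NF-κB. In the canonical pathway, which TNFα activates, dimers with RELA enter the nucleus within minutes once their inhibitor is degraded. In the noncanonical pathway, for which TWEAK, lymphotoxin and the CD40 ligand are known, the kinase NIK accumulates slowly and dimers with RELB follow, so receptor genes can lie both above these pathways and among their targets. H3K27ac marks active promoters and enhancers, and FOSL1 is a member of the AP-1 family.

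The lists were of unequal length. On chromosomes 1 to 22, X and Y the RELA lists held 3004 peaks in vehicle, 11266 and 7294 after 30 min and 6 h of TNFα, and 2791 and 3677 after 30 min and 6 h of TWEAK. The RELB lists held between 2414 and 4101 peaks, the H3K27ac lists between 53895 and 61194, and the FOSL1 list 58864. Overlapping RELA and RELB peaks merged into 16096 sites, of which 9364 lay outside tandem repeats. Of these 9364 sites, 570 were called for RELA or RELB in vehicle, so the lengths of the vehicle lists include many peaks in tandem repeats. Vehicle H3K27ac covered the start of 1 of 5 epithelial marker genes, EPCAM, and of 0 of 4 leukocyte, 0 of 2 endothelial and 0 of 3 fibroblast markers. The starts of KRT8, KRT18, KRT19 and CDH1 lay in gaps beside peaks, and with a distance of 500 bp, which was chosen after seeing this, 5 of 5 epithelial markers and none of the 9 others carried a peak.

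The 8 windows held 15 separate RELA or RELB sites, at 6 of the 8 genes, and 0 of them lay in tandem repeats. TNFRSF1A had 6 sites, TNFRSF1B and TNFRSF12A 3 each, LTBR and FAS 2 each and TNFRSF9 1, with 2 sites shared by the neighbours TNFRSF1A and LTBR. CD40 and TNFRSF21 had 0. All 15 sites were called for RELA after 30 min TNFα and 6 were called for RELB after 6 h TWEAK. A site in the window of a receptor gene need not belong to that gene: for 6 of the 15 sites the nearest protein-coding start was that of the receptor gene itself, and the strongest site in the TNFRSF12A window lay at the start of another gene, IL32.

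**Figure D1:**
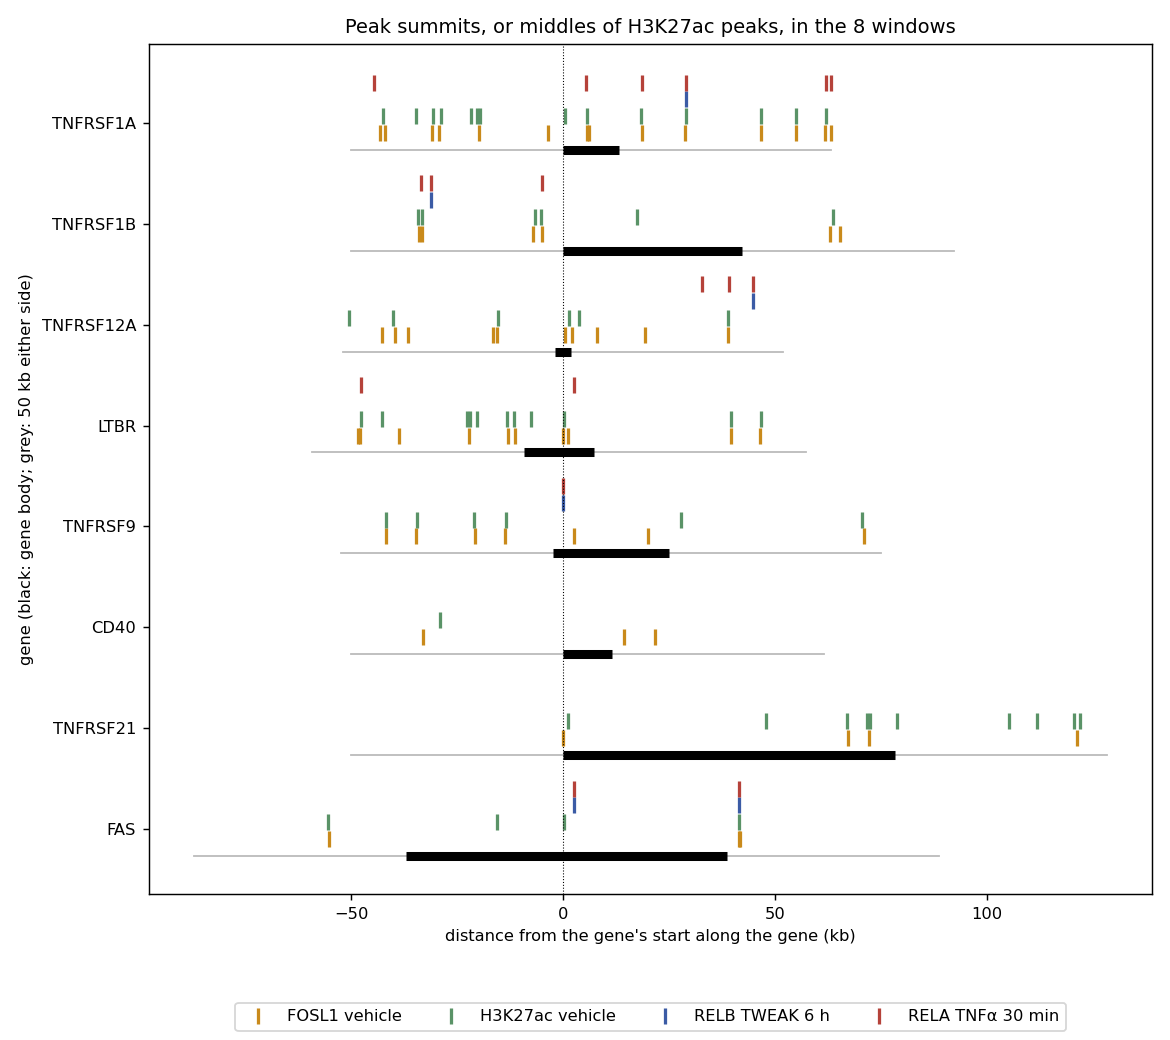
Positions of peaks in the 8 windows, with the distance from the gene's start on the horizontal axis in kb and 1 row of marks per list for each gene. The black bar is the gene body and the grey line the 50 kb on either side. RELA and RELB marks share positions at TNFRSF9, FAS, TNFRSF1A, TNFRSF1B and TNFRSF12A, and none are drawn for CD40 or TNFRSF21.

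The 6 sites called for both subunits are those reached after both ligands, and their sequences are printed here from the plus strand of hg38, with matches to the NF-κB consensus or to the AP-1 motif TGANTCA in capitals. Both motifs were searched on both strands in the 200 bp around the summit, the position of the highest signal. Runs are 100 bases about the summit, or 30 bases about the nearest NF-κB match where the region touches an annotated UTR.
TNFRSF9 promoter, chr1:7940894-7940923: gggtctcatGGGAAATTCCCaccacagctc
FAS intron 1, chr10:88993316-88993415: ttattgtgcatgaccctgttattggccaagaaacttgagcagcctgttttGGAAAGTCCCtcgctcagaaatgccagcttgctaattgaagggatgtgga
FAS distal site, chr10:89032305-89032404: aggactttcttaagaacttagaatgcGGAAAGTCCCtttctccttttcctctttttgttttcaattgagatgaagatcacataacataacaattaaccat
TNFRSF1B upstream site, chr1:12135841-12135940: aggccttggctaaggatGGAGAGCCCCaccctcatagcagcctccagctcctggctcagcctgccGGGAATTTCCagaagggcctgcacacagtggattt
PLEKHG6 intron 2 in the TNFRSF1A window, chr12:6312932-6312961: gcttgtggctGGGACATCCCctgcctcaat
IL32 start in the TNFRSF12A window, chr16:3065295-3065324: ctgtactcaGGGAGTTTCCCcagccagctg

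Both FAS sites held the same match, GGGACTTTCC on the minus strand, with its centre 4 bp from the summit in intron 1 and 19 bp from it at the distal site. The same letters stood on the plus strand of the PLEKHG6 site, 25 bp from its summit. TNFRSF9 and the TNFRSF1B upstream site shared GGGAATTTCC. At TNFRSF9 the NF-κB match was centred 1 bp from the summit and an AP-1 match 30 bp from it. All 6 of these sites held an NF-κB match, where 58.2% of all RELB sites outside tandem repeats did. Among the 9 sites called for RELA alone, 2 held a match, beside 40.9% of all such sites. Over the 15 sites the count was 8, beside 44.2% of all sites, and an AP-1 match was present at 3, beside 20.5%. A match describes the letters in the window and does not show binding by a given factor.

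TNFRSF9, which encodes the costimulatory receptor 4-1BB, had its site at its own promoter. Its single site (chr1:7940776-7941080, summit at -71 bp from the canonical start) was called for RELA after 30 min and 6 h of TNFα with a fold enrichment over input of 10.1 and 13.6, and for RELB after 6 h TWEAK with 9.34. These peaks were stronger than 85.0%, 95.0% and 83.9% of the peaks of their lists. Ranks here and below are against all peaks of a list, those in tandem repeats included. No peak was called there in vehicle, for RELA at either time of TWEAK, or for RELB after TNFα or 30 min of TWEAK. H3K27ac was present within 500 bp after 30 min and 6 h of TNFα, with a fold enrichment of 2.73 and 2.97, and not in vehicle or after TWEAK, where the nearest peak was 12641, 12665 and 12627 bp away. At 6 h 2 H3K27ac peaks lay on either side of the summit, with a fold enrichment of 2.81 and 2.97. These calls were weak, with -log10 q of 1.88 at 30 min and at most 2.90 at 6 h. FOSL1 did not overlap the site.

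FAS, the death receptor for FAS ligand, had 2 sites, both called for each subunit. The intron 1 site (chr10:88993265-88993454, 2568 bp past the start) had a RELA fold enrichment of 6.47 at 30 min and 6.62 after 6 h TNFα and a RELB fold enrichment of 11.0 after 6 h TWEAK. It lay outside the H3K27ac peaks of all 5 conditions, the nearest being between 1250 and 1396 bp away, and did not overlap FOSL1.

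The distal FAS site (chr10:89032181-89032512) lay 2750 bp past the end of the gene body and was called in 6 of the 10 lists, more than any other of the 15 sites. RELA was called in vehicle with a fold enrichment of 5.30, after 30 min TNFα with 17.2, after 6 h TNFα with 12.4 and after 30 min TWEAK with 6.55. RELB was called in vehicle with 4.39 and after 6 h TWEAK with 12.6. This was the sole site called in vehicle, 1 of 15 beside 6.09% of all sites outside tandem repeats. It overlapped a FOSL1 peak with a fold enrichment of 10.0 and carried H3K27ac within 500 bp in every condition, with a fold enrichment between 3.64 and 4.45. At 6 h of TNFα and of TWEAK 2 H3K27ac peaks lay on either side of the summit, the nearer 123 and 147 bp away. The value used there is that of the stronger peak.

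TNFRSF1A, the widely expressed receptor of TNFα, had 6 sites. Within the gene itself, intron 1 held 1 site (chr12:6336434-6336736), called for RELA after 30 min TNFα with a fold enrichment of 4.87, above 26.4% of that list. It overlapped FOSL1 with a fold enrichment of 8.54 and carried H3K27ac in all conditions. Stronger sites lay in the neighbouring PLEKHG6, which encodes a guanine nucleotide exchange factor. The site in its intron 2 (chr12:6312769-6313154, 29110 bp from the TNFRSF1A start and 315 bp from a PLEKHG6 start) had a RELA fold enrichment of 13.2 at 30 min and 10.8 after 6 h TNFα, and a RELB fold enrichment of 5.93 after 6 h TNFα and 7.78 after 6 h TWEAK. The site in its intron 13 had a RELA fold enrichment of 10.5 at 30 min and 5.24 after 6 h TNFα and was not called for RELB. At the intron 13 site H3K27ac had a fold enrichment of 2.83 in vehicle, 4.36 and 3.48 after 30 min and 6 h of TNFα, and 3.09 and 3.26 after 30 min and 6 h of TWEAK. The 2 sites farthest downstream had 4.31 and 5.91 after 30 min TNFα, and the summit of the latter lay 50061 bp from the gene body, so that the peak only reached into the window. Just beyond it, the next site lay 55.5 kb from the gene body and had a fold enrichment of 3.82. The remaining site of the TNFRSF1A window lay upstream, in intron 6 of LTBR, with a RELA fold enrichment of 8.66 after 30 min TNFα.

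LTBR had 2 sites, both called in the single list of RELA after 30 min TNFα. Its own site in intron 6 (chr12:6386620-6386817, 2556 bp past the start) had a fold enrichment of 8.66, above 78.0% of that list, with no FOSL1 overlap, no NF-κB or AP-1 match and no H3K27ac within 500 bp. The other is the TNFRSF1A intron 1 site. No RELB peak was called in the LTBR window.

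TNFRSF1B, the second TNFα receptor, had no RELA or RELB site in its body. The nearest (chr1:12161943-12162107, -4962 bp from the start) was called for RELA after 30 min TNFα with a fold enrichment of 6.54, overlapped FOSL1 with 12.9 and held an AP-1 match and no NF-κB match. The 2 others lay in TNFRSF8, which encodes CD30. The site in intron 13 (chr1:12135829-12135976) had a RELA fold enrichment of 6.35 at 30 min and 5.75 after 6 h TNFα and a RELB fold enrichment of 5.52 after 6 h TWEAK, with no FOSL1 overlap and no H3K27ac within 500 bp. The site in intron 12 was called for RELA after 30 min TNFα alone, with 5.20.

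TNFRSF12A, the TWEAK receptor, had no RELA or RELB site in its own body, and the nearest summit lay 30749 bp from it. All 3 sites of its window lay in or beside the genes MMP25, a matrix metalloproteinase, and IL32, a cytokine. The IL32 site (chr16:3065120-3065542) had the highest RELA fold enrichment of the 15, with 17.6 after 30 min TNFα, 14.3 after 6 h TNFα and 8.06 after 30 min TWEAK, and RELB values of 6.15 after 6 h TNFα and 8.02 after 6 h TWEAK. H3K27ac was absent within 500 bp in vehicle, the nearest peak being 5258 bp away, and was called in the 4 treated conditions with a fold enrichment between 2.88 and 3.13. The -log10 q of these peaks was 11.6 and 7.77 after 30 min and 6 h of TNFα, and 3.71 and 2.67 after 30 min and 6 h of TWEAK, so the calls after TWEAK were weak. The 2 MMP25 sites were called for RELA after 30 min TNFα alone, with 7.64 and 3.85. Another site 55.0 kb upstream of the gene body, just outside the window, had a fold enrichment of 13.6.

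CD40, whose ligand activates the noncanonical pathway, and TNFRSF21, which encodes death receptor 6, had no RELA or RELB peak in any list. The nearest site to CD40 lay 110.0 kb upstream, close to the start of MMP9, and was called for RELA after 30 min TNFα with a fold enrichment of 6.81. For TNFRSF21 it lay 95.8 kb downstream and was called in 5 lists, with a highest value of 7.43. The CD40 window held 1 H3K27ac peak in vehicle, 28299 bp from the start, while TNFRSF21 had H3K27ac and FOSL1 over its start in vehicle. The absence of a peak in these lists says only that none passed the authors' threshold at a depth that is unknown.

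**Figure D2:**
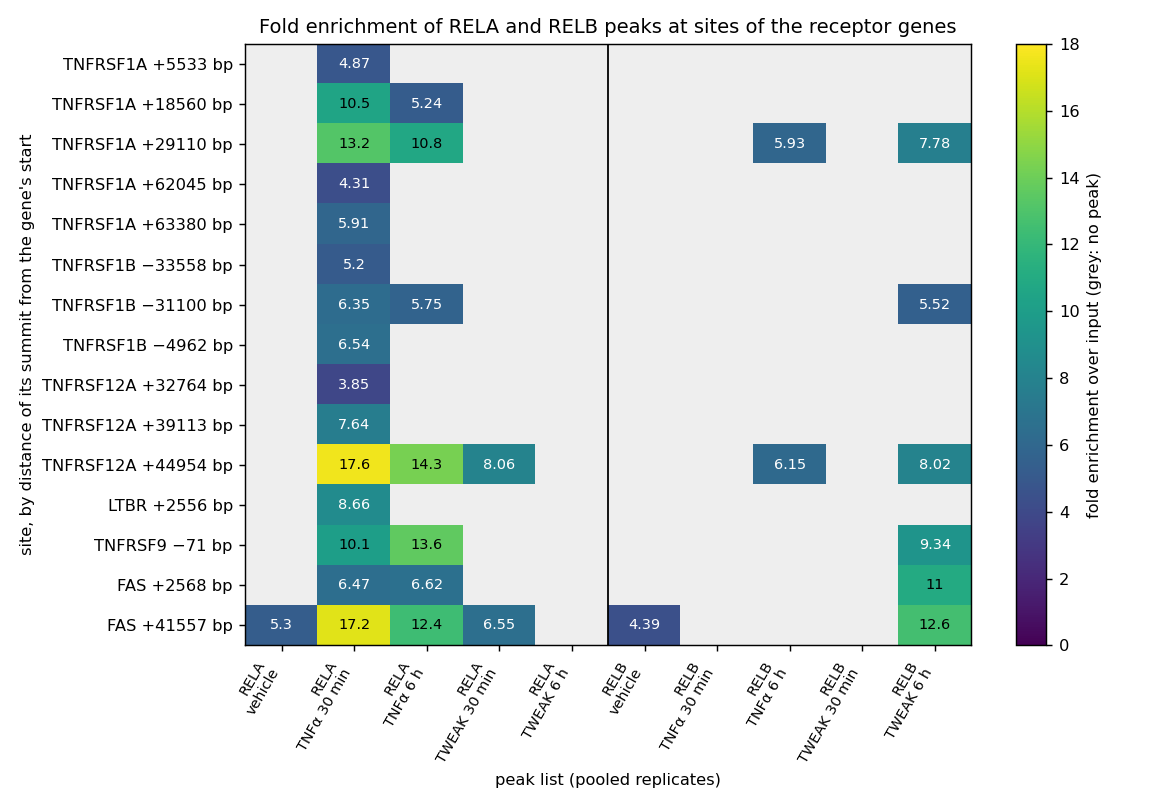
Fold enrichment over input of each RELA and RELB peak, printed in the cell, for 15 sites (rows, named by the gene and the distance of the summit from its start in bp) in 10 lists (columns); grey marks no peak. The column of RELA after 30 min TNFα is filled for all 15 sites, from 3.85 to 17.6, and the columns of RELA after 6 h TWEAK and RELB at 30 min of either ligand are empty.

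Over the genes, a RELA peak was present at 1 of 8 in vehicle, beside 5.05% of all protein-coding genes. Shares of genes count every peak of a list, those in tandem repeats included, while shares of sites leave repeats out. At 30 min and 6 h of TNFα the counts were 6 and 5, beside 48.1% and 26.8%. At 30 min and 6 h of TWEAK they were 2 and 0, beside 7.58% and 5.12%. For RELB the counts were 1 in vehicle, beside 3.06%, 0 and 2 after 30 min and 6 h of TNFα, beside 1.59% and 3.87%, and 0 and 5 after 30 min and 6 h of TWEAK, beside 1.41% and 13.6%. All 8 genes had a FOSL1 peak, beside 90.5%. The windows of the 8 genes were between 104 and 178 kb long, and the median over all genes was 127.0 kb. With each RELA and RELB list limited to its 2414 strongest peaks, RELA after 30 min TNFα had 5 peaks, at 4 genes, beside 18.7% of all genes. RELB after 6 h TWEAK was present at the same 4 genes, TNFRSF1A, TNFRSF12A, TNFRSF9 and FAS, beside 10.6%. With peaks counted only where the receptor's own start was the nearest, RELA after 30 min TNFα was present at 5 genes, beside 23.9% of all genes, and RELB after 6 h TWEAK at 2, TNFRSF9 and FAS, beside 6.02%.

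**Figure D3:**
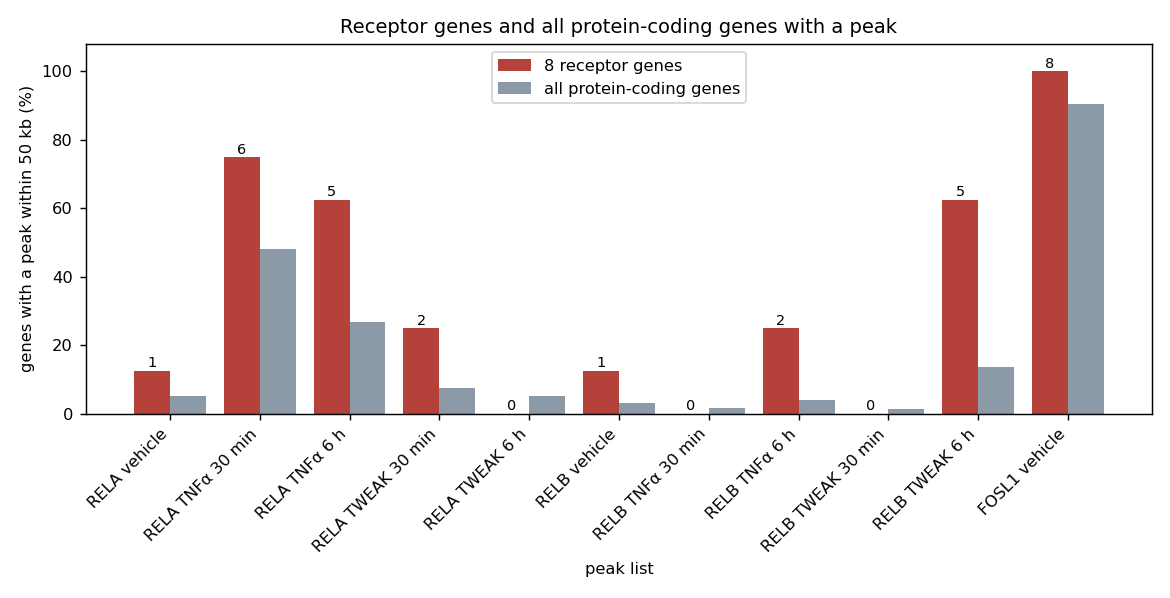
Percent of genes with at least 1 peak in the gene body or the 50 kb on either side (vertical axis) for each of 11 lists, for the 8 receptor genes (red, with the count above the bar) and for all protein-coding genes (grey). The red bars of RELA after 30 min TNFα and RELB after 6 h TWEAK stand for 6 and 5 genes, beside 48.1% and 13.6% of all genes.

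Of the 15 sites, 7 were called for RELA after 6 h TNFα, beside 38.8% of all sites outside tandem repeats, and 8 in the list of RELA after 30 min TNFα alone, beside 55.6%. RELB was called at 6, beside 19.2%. FOSL1 overlapped 9 of 15, beside 48.5%. At the 6 RELB sites FOSL1 overlapped 2, where it overlapped 62.7% of all RELB sites outside tandem repeats, and at the 9 sites of RELA alone it overlapped 7, where it overlapped 45.1% of all such sites. No difference between these sites and the rest was tested.

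H3K27ac lay within 500 bp of 9 of the 15 sites in vehicle, beside 61.9% of all sites outside tandem repeats. The counts were 11 and 11 after 30 min and 6 h of TNFα, beside 71.4% and 69.8%, and 10 and 10 after 30 min and 6 h of TWEAK, beside 61.0% and 62.4%. At 30 min of TNFα 2 sites had the mark that lacked it in vehicle, those at TNFRSF9 and IL32, beside 11.2% of all sites outside tandem repeats, and 0 had it in vehicle alone of the pair, beside 1.63%. The mark was present in all 5 lists at 9 sites, beside 56.2%, and in no list at 4, beside 23.4%. The 4 without it were the intron sites of FAS and LTBR, the RELB site in TNFRSF8 and the weaker MMP25 site.

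**Figure D4:**
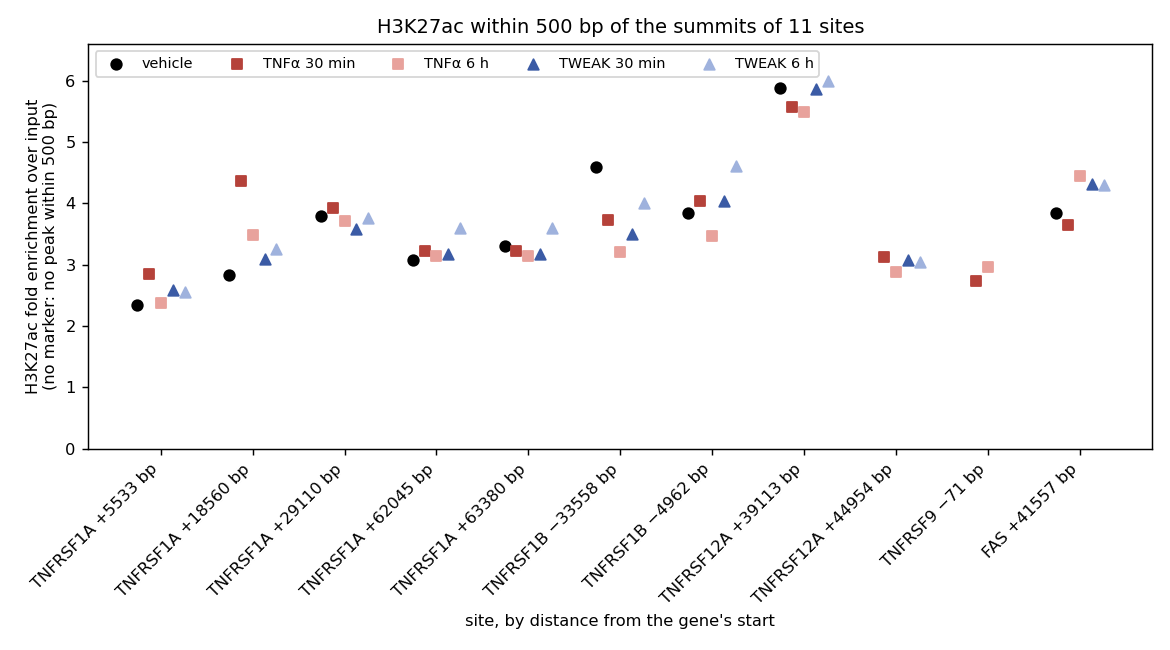
Fold enrichment of H3K27ac over input (vertical axis) within 500 bp of the 11 sites that carried the mark in at least 1 condition (horizontal axis, by distance from the gene's start in bp), with 1 marker per condition and no marker where no peak was called. TNFRSF9 has markers for both TNFα times alone, and the IL32 site in the TNFRSF12A window for all treatments and not for vehicle.

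At the starts of the receptor genes, H3K27ac covered the first base of 5 of 8 genes in vehicle (FAS, LTBR, TNFRSF12A, TNFRSF1A and TNFRSF21), beside 52.6% of all genes. The counts were 5 and 5 after 30 min and 6 h of TNFα, beside 48.4% and 51.0%, and 3 and 4 after 30 min and 6 h of TWEAK, beside 49.7% and 48.1%. The lower counts after TWEAK turned on a few bases: at TNFRSF12A the edge of the peak lay 5 and 8 bp from the start after 30 min and 6 h of TWEAK, and at TNFRSF21 13 bp at 30 min. With a distance of 500 bp, chosen after seeing these values, the same 5 genes carried the mark in vehicle and at both TWEAK times, beside 61.1%, 59.9% and 60.7%, and TNFRSF9 made 6 after 30 min and 6 h of TNFα, beside 59.2% and 60.9%. The fold enrichment at the TNFRSF12A start was between 2.68 and 2.77 over the 5 conditions, and at the LTBR start between 3.44 and 3.70. FOSL1 in vehicle covered the starts of LTBR and TNFRSF21, with a fold enrichment of 4.2 and 4.87. At TNFRSF12A a FOSL1 peak with a fold enrichment of 11.0 lay within 500 bp of the start.

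Related genes were counted by the same rule. A RELA peak after 30 min TNFα was present at 14 of 21 other receptors of the family and a RELB peak after 6 h TWEAK at 7, which included TNFRSF10A, TNFRSF10B, TNFRSF10C and TNFRSF10D, the neighbouring receptors of TRAIL. TNFRSF8 is in both counts, and the sites in its introns 12 and 13 are also those of the TNFRSF1B window. These counts are therefore of genes and not of separate peaks, and they are not independent of the 8 receptor genes. Of 8 ligands, 7 had a RELA peak after 30 min TNFα and 1, TNFSF14, a RELB peak after 6 h TWEAK. TNF, LTA and LTB are neighbours whose windows share the same single RELA peak. Of 12 genes of receptor-proximal signalling, 9 had a RELA peak after 30 min TNFα and 6 a RELB peak after 6 h TWEAK, and BIRC2, BIRC3, FADD and TRAF2 had a peak of each subunit in vehicle. BIRC2 and BIRC3, neighbouring genes of the inhibitors of apoptosis cIAP1 and cIAP2, share those vehicle peaks. The shares of all genes are those given above for the same lists.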

How the data were processed

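Chromatin of L3.6pl cells was immunoprecipitated with antibodies to RELA, RELB, FOSL1 and H3K27ac and sequenced. Per the submitters' processing notes, the authors used Bowtie2 2.5.0, SAMtools 1.18, deepTools 3.3.2 and MACS2, whose version is not given in the sources used here, with hg38. Reads were mapped, replicates merged and peaks called against input without a shifting model. The deposited fold enrichment is the authors' ratio of ChIP over input, and the deposited −log10 q is their significance. The 32 columns of scores and −log10 p were not used. Beads differed, with protein G for RELA and protein A for the other antibodies, so levels of different antibodies are not on a common scale. Fold enrichments of different lists are printed and drawn side by side as deposited. They were not adjusted for depth, and no difference between lists was tested. Depth per sample is unknown.

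Gene bodies, canonical starts and UTRs came from GENCODE 44, and 0 peaks lay past a chromosome end. RELA and RELB peaks sharing at least 1 bp were merged into sites. The summit is that of the strongest peak. FOSL1 needed 1 bp of overlap and H3K27ac a distance of 500 bp. A tandem repeat is a window of 1000 bp whose self-match at shifts of 1 to 400 bp is at least 0.4. Named sites were, per gene, the strongest RELA site after 30 min TNFα, the strongest RELB site after 6 h TWEAK, the site nearest a start and any called in 8 or more lists, and the others were named after their values were seen. Members and lists were chosen with earlier results of these data known. Python 3.11.15, pandas 2.3.3, numpy 2.4.6 and pysam 0.24.0 were used. Overlaps, merging, motifs and repeats were tested on simulated data, and own code and bedtools 2.31.1 both gave 3083 RELB peaks after 6 h TWEAK overlapping RELA after 30 min TNFα. Alternatives covered thresholds, windows, list length, gene assignment, overlap and motif choices.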

Additional observations from a re-analysis of the deposited data

How the results depend on the processing

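Of 92 alternative values for 21 counts, 65 stayed within 1.5 times of the reported value. The counts of sites with FOSL1, H3K27ac or a motif, and those under a q of at most 0.001, with the summit inside the window and outside tandem repeats, all did. With the gene body alone, RELA after 30 min TNFα had 4 peaks, after 6 h TNFα 2 and in vehicle 0, RELB after 6 h TWEAK had 2 peaks at 2 genes and in vehicle 0, and there were 4 sites. With 10 kb on either side these were 7 and 4 RELA peaks after 30 min and 6 h of TNFα, 3 RELB peaks at 2 genes after 6 h TWEAK, and 7 sites. With 100 kb they were 25 RELA peaks after 30 min TNFα, 2 RELB peaks in vehicle and 27 sites. With lists of equal length there were 5 and 4 RELA peaks after 30 min and 6 h of TNFα, 0 RELB peaks in vehicle and 6 sites. With the receptor's own start nearest there were 6 and 3 RELA peaks after 30 min and 6 h of TNFα, 3 RELB peaks at 2 genes after 6 h TWEAK, and 6 sites. A fold enrichment of at least 5 left 0 RELB peaks in vehicle. With H3K27ac within 500 bp of a start, added after seeing the data, 5 receptor genes after 30 min TWEAK and 5 epithelial markers carried the mark. Replicates could not be left out, since each list is pooled. No paired analysis was possible because no result comes from a test and each condition has 1 list.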
